A study of Homo sapiens with 12 samples.

Results

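The 38 genes described here drive the passage of a cell through G2 and mitosis. They were chosen by name, with earlier results of these data known. The list holds the kinases and cyclins of mitotic entry, the spindle checkpoint, kinetochore proteins, mitotic kinesins, cytokinesis factors and the transcription factors FOXM1 and MYBL2. All 38 were found among the 15074 genes of the deposited tables. Their mean expression ran from 3.81 to 9.96 on the log2 CPM scale (counts scaled to library size), with a median of 7.30 against 4.45 over all genes, so the whole group lay in the well-expressed range. CPM is not corrected for gene length, and levels are therefore compared here between lines and never between genes.

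RNA was sequenced from 4 forms of HCT116, a human colorectal carcinoma cell line. The parental group is the unmodified line. AGO2_KO is labelled as the knockout of AGO2, the Argonaute protein that carries microRNAs to their target mRNAs. FH-AGO2_WT and FH-AGO2_5xA are the knockout reconstituted with FH-tagged AGO2, as the wild-type protein or as the 5xA mutant, in which phosphorylated residues are replaced by alanine. All 3 modified groups thus share the knockout, and any difference between the knockout and the parental line that does not come from AGO2 would be carried by the reconstituted lines too. Each group has 3 libraries, from wells of 1 line harvested after 48 h, with ribosomal RNA depleted and a stranded kit used. The labels do not say whether a line is a clone, nor which promoter drives the reconstituted protein. Wells of a line are the only replicates, so the tests cover the spread among wells and not that among lines made independently. The series set out to find transcripts that separate cells with wild-type from cells with 5xA AGO2, with parental and knockout cells as controls.

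A dividing cell enters mitosis when CDK1 bound to cyclin B is activated by CDC25 phosphatases and supported by the Aurora and Polo-like kinases. Chromosomes attach to spindle microtubules at kinetochores, and the spindle checkpoint holds back the anaphase-promoting complex until all are attached. That complex, with CDC20 and the enzyme UBE2C, then marks cyclin B and securin for destruction, sister chromatids part, and the central spindle and contractile ring divide the cell. The mRNAs of this machinery peak together late in the cycle. In resting cells their promoters are held silent by the DREAM complex, and in cycling cells the same MuvB core, with MYBL2 and FOXM1, turns them on. MuvB binds the cell cycle genes homology region (CHR) close to the transcription start, and many of these promoters also carry CCAAT boxes, the site of NF-Y. The level of these mRNAs in bulk RNA moves with the share of cells in G2 and mitosis: fewer such cells and less of the mRNA per cell cannot be told apart in these data.

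The promoter letters behind that background are shown for 7 genes that differ in motif content or in behaviour. Promoters were taken from RefSeq (GRCh38.p14) as 300 bases, from 250 before to 50 after the annotated start. The table matched 31 of the 38 genes; AURKA, BUB3, TTK, UBE2C, BIRC5, TPX2 and FOXM1 were not matched. The 150 bases just before the start are printed 5′ to 3′ on the strand of the gene, with matches to the CHR element (TTTGAA or TTCGAA, on either strand) and to the CCAAT box (CCAAT, or ATTGG where it lies on the other strand) in capitals. CCNB2 (chr15:59104996-59105145, plus strand), PRC1 (chr15:90994536-90994685, minus strand) and KIF4A (chrX:70289954-70290103, plus strand) show the usual layout. PLK1 (chr16:23678739-23678888, plus strand) has that layout but did not pass the test in the knockout. CDC25B (chr20:3796160-3796309, plus strand, the third of 4 annotated starts) has it and rose. KIF2C (chr1:44739687-44739836, plus strand) and MYBL2 (chr20:43666964-43667113, plus strand) hold neither motif in their windows and fell.
CCNB2: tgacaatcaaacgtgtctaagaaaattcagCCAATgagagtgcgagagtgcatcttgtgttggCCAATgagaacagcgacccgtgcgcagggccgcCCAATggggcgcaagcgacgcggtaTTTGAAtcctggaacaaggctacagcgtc
PRC1: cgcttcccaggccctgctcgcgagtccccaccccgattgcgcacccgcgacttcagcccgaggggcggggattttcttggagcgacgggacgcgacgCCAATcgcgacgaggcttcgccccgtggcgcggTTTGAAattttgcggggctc
KIF4A: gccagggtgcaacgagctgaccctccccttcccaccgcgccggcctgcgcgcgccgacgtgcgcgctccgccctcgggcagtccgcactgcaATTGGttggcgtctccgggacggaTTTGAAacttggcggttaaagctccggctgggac
PLK1: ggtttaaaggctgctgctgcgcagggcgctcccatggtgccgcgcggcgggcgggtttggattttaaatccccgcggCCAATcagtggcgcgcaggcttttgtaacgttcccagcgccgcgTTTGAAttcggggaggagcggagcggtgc
CDC25B: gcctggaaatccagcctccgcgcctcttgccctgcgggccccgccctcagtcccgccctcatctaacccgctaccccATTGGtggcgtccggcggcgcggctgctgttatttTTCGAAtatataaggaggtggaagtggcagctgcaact
KIF2C: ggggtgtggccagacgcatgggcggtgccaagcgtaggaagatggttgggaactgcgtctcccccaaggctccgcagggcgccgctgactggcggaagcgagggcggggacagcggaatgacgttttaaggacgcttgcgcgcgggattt
MYBL2: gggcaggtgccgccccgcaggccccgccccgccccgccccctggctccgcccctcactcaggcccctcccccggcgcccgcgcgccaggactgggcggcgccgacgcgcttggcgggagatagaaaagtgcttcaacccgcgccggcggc

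In the whole window, 22 of the 31 matched genes held a CHR element (71%, 95% Clopper-Pearson interval 52 to 85.8), against 15.3% of 10183 measured genes with a promoter in the table. A CCAAT box was found in 24 (77.4%, interval 58.9 to 90.4), against 43.3%. Both stood in 1 window in 18 genes (58.1%, interval 39.1 to 75.5), against 6.41%. Several starts were annotated for 6 of the 31 genes, which gives those more letters to match in. In the narrower window from 100 bases before the start to 50 after it, the shares were 64.5% for the CHR element, 67.7% for CCAAT and 45.2% for both. Over all measured genes with a promoter these were 6.66%, 29.1% and 2.03%. In CCNB2 the CHR element began 29 bases before the start and the nearest CCAAT box 54 before it. In PRC1 these distances were 20 and 53 bases, in KIF4A 34 and 58, in PLK1 29 and 73, and at the third start of CDC25B 38 and 73. The 9 matched genes with no CHR letters were AURKB, CCNA2, CCNB1, CENPE, KIF20A, KIF2C, MYBL2, NEK2 and PTTG1, of which CENPE, KIF2C and MYBL2 also held no CCAAT. A match is only a match of letters, and its absence says only that the letters are not in this window.

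**Figure D1:**
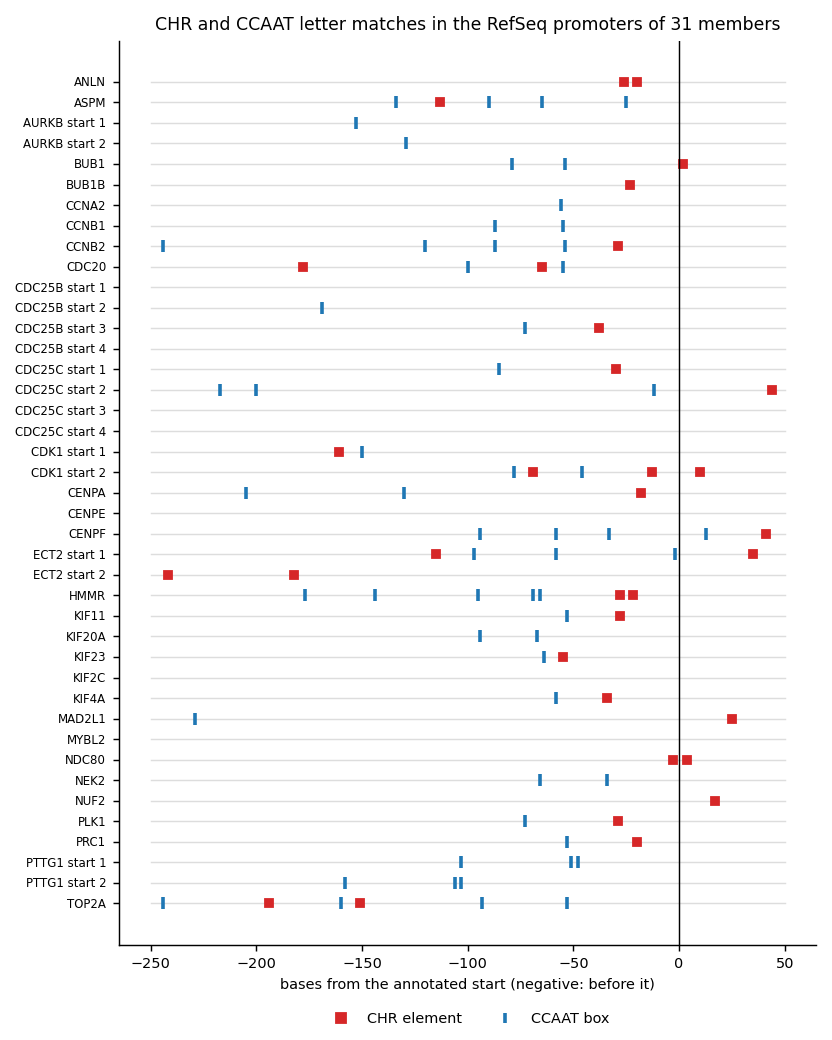
Each row is 1 annotated promoter of the 31 matched genes and the x axis gives the distance in bases from the annotated start, negative before it. Red squares mark CHR element matches and blue ticks CCAAT boxes. In many rows a red square lies within 50 bases of the start with a blue tick further out. The rows of KIF2C, MYBL2 and CENPE are empty, as are those of some other starts of CDC25B and CDC25C.

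The analysis rests on 5 deposited comparison tables, and values per library were not analysed here, so the depth is unknown and the overlap of single libraries cannot be shown. Levels below are fitted group levels in CPM, the 4 values that satisfy the deposited fold changes and average to the deposited mean expression, and errors on log2 fold changes are standard errors (SE) derived from the deposited score. AGO2 mRNA stood at -0.35 ± 0.07 on the log2 scale in AGO2_KO against parental in the authors' deposited table, and at 0.75 ± 0.07 in FH-AGO2_WT and 0.73 ± 0.07 in FH-AGO2_5xA against AGO2_KO. The fall in AGO2_KO has the direction the label gives, but much of the mRNA was still counted, so this value does not show loss of the protein. Of 12 colorectal epithelium markers, 6 were in the tables (CDH1, CDX2, EPCAM, KRT8, KRT18 and KRT19), with summed fitted levels of 2017 to 2828 CPM; CDX1, CEACAM5, KRT20, LGR5, MUC2 and VIL1 were not. Of 8 fibroblast markers only COL1A1 was, at 1.83 to 4.99 CPM, and none of 5 endothelial and 6 blood markers was. The 20 mitochondrially encoded genes took 0.870% of the summed fitted CPM in parental, 1.29% in AGO2_KO, 3.91% in FH-AGO2_WT and 1.99% in FH-AGO2_5xA. The part of this share in the results below was not tested.

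The AGO2 knockout line had lower mRNA of most of the 38 mitotic genes. At a false discovery rate under 0.05 in the authors' deposited table of AGO2_KO against parental, 34 of the 38 genes were lower and 1, CDC25B, was higher. Over all genes 21.2% were called lower and 23.2% higher, and among the 8947 genes at least as strongly expressed as the weakest of the 38, 24.7% were called lower. The median log2 fold change of the 38 was -0.50, against -0.01 over all genes, and 37 of them lay below 0. Their values ran from -1.0 (NDC80) to 1.06 (CDC25B). The summed fitted level of the 38 was 9165 CPM in parental and 6530 CPM in AGO2_KO. Most changes were moderate: 14 of the 35 called genes changed at least 1.5-fold. CDKN1A, a cyclin-dependent kinase inhibitor, stood at 2.04 ± 0.11 in the same deposited table (false discovery rate 2.15e-72) and its part in these changes was not tested.

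**Figure D2:**
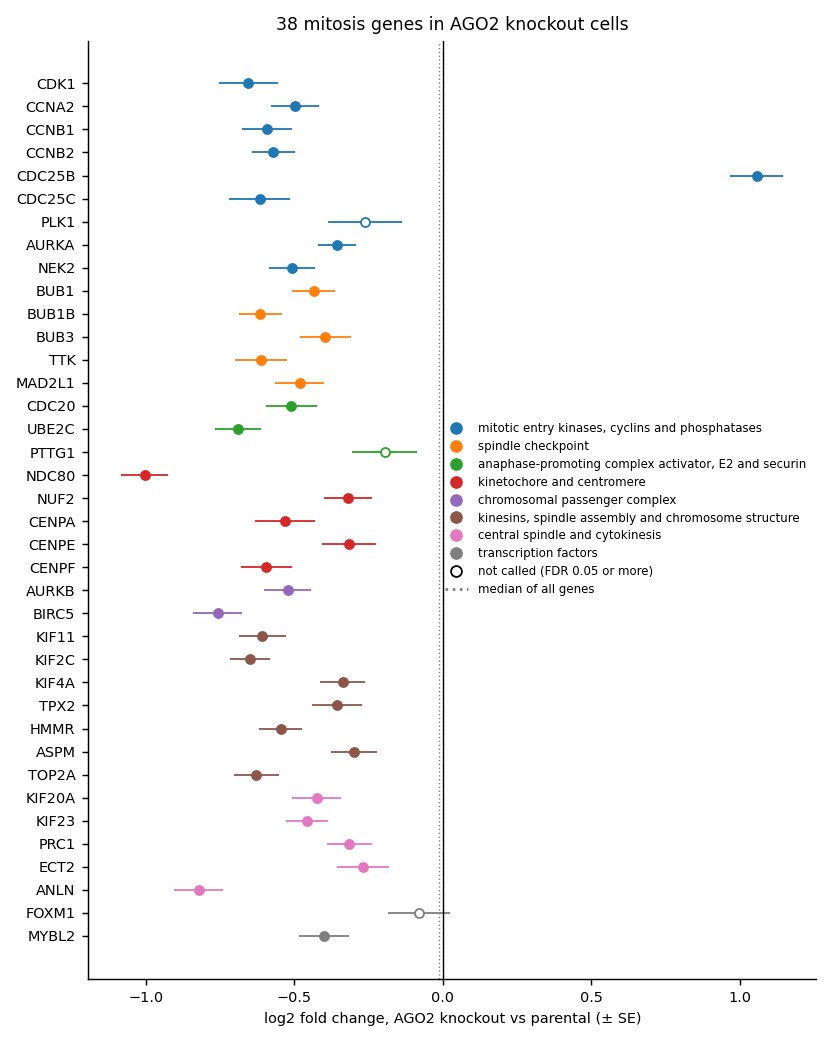
Log2 fold change of AGO2_KO against parental (x axis, points with SE) for the 38 genes in order of role; filled points passed a false discovery rate of 0.05, open points did not, and the dotted line is the median of all genes. All points but CDC25B lie left of 0, from NDC80 at -1.0 to FOXM1 at -0.08.

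Among the 9 kinases, cyclins and phosphatases of mitotic entry, 7 fell and 1 rose. CDK1, the kinase that drives mitotic entry, had a fitted level of 290 CPM in parental and 185 CPM in AGO2_KO, a log2 change of -0.65 ± 0.10 in the authors' deposited table (false discovery rate 8.43e-10). Its partner cyclin B1 (CCNB1) went from 348 to 231 CPM, at -0.59 ± 0.08 in the authors' deposited table (2.26e-11). Cyclin B2 (CCNB2) went from 126 to 84.9 CPM, at -0.57 ± 0.07 in the authors' deposited table (1.02e-13). The kinase and both of its B-type cyclins were thus lower by like amounts, between 1.49-fold and 1.57-fold. Cyclin A2 (CCNA2), which acts from S phase into early mitosis, stood at -0.50 ± 0.08, the centrosome kinase NEK2 at -0.51 ± 0.08 and Aurora A (AURKA), which matures the spindle poles, at -0.36 ± 0.06 in the authors' deposited table, all 3 called lower.

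CDC25B and CDC25C, phosphatases that remove the inhibitory phosphates from CDK1, moved in opposite directions. CDC25C fell from 18.8 to 12.2 CPM, at -0.62 ± 0.10 in the authors' deposited table (1.93e-08). CDC25B rose from 52.7 to 110 CPM, at 1.06 ± 0.09 in the authors' deposited table (2.83e-30), a 2.08-fold rise. It was the exception among the 38 and ranked 398th from the top of all 15074 genes in that comparison. The median change of the 69 measured genes within 5 Mb of CDC25B on chromosome 20 was -0.00. PLK1, the Polo-like kinase of mitotic entry, went from 80.4 to 67.1 CPM and did not pass, at -0.26 ± 0.12 in the authors' deposited table (false discovery rate 0.0739, 95% interval -0.50 to -0.02).

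All 5 spindle checkpoint genes fell. The checkpoint kinase BUB1 stood at -0.44 ± 0.07, BUB1B, which encodes the mitotic checkpoint complex subunit BubR1, at -0.61 ± 0.07 and BUB3, their common partner, at -0.40 ± 0.09 in the authors' deposited table. TTK, the kinase that starts the checkpoint signal, went from 199 to 130 CPM, at -0.61 ± 0.09 in the authors' deposited table (2.98e-11). MAD2L1, which binds and holds CDC20, went from 180 to 129 CPM, at -0.48 ± 0.08 in the authors' deposited table (3.8e-08). The range within the checkpoint was narrow, from BUB1B to BUB3.

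Of the 3 listed genes for the activator, the enzyme and the target securin of the anaphase-promoting complex, 2 fell. UBE2C, the ubiquitin-conjugating enzyme of the complex, went from 117 to 72.4 CPM, at -0.69 ± 0.08 in the authors' deposited table (2.18e-17). CDC20, its activator in mitosis, stood at -0.51 ± 0.09 in the authors' deposited table (2.84e-08). Securin (PTTG1), which guards sister chromatids from separase, did not pass, at -0.20 ± 0.11 in the authors' deposited table (false discovery rate 0.135, 95% interval -0.41 to 0.02). PTTG1 has near-identical copies, PTTG2 at -0.18 and PTTG3P at -0.24 in the authors' deposited table, neither called, and the sharing of reads among them is not known, so its value is uncertain.

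All 5 kinetochore and centromere genes fell, among them the most reduced gene of the 38. NDC80, the subunit that grips spindle microtubules, went from 108 CPM in parental to 53.7 CPM in AGO2_KO, at -1.0 ± 0.08 in the authors' deposited table (1.28e-34), or 2.0-fold lower. NUF2, its direct partner in the same complex, fell from 78.6 to 63.0 CPM, at -0.32 ± 0.08 in the authors' deposited table (0.000305). The 2 subunits thus had the largest and, with CENPE, the smallest change of this role; the difference between them was not tested. NDC80 ranked 256th from the bottom of all genes, and the 29 measured genes within 5 Mb of it on chromosome 18 had a median of -0.02. The centromeric histone CENPA stood at -0.53 ± 0.10, the kinesin CENPE, which moves chromosomes to the metaphase plate, at -0.32 ± 0.09, and CENPF, a large kinetochore protein, at -0.59 ± 0.09 in the authors' deposited table.

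The chromosomal passenger complex corrects faulty attachments, and both of its listed genes fell. Survivin (BIRC5) went from 306 to 181 CPM, at -0.76 ± 0.08 in the authors' deposited table (5.98e-19), while the kinase Aurora B (AURKB) stood at -0.52 ± 0.08 (9.35e-10). All 7 genes of spindle assembly and chromosome structure fell as well. The motor KIF11, which pushes spindle poles apart, stood at -0.61 ± 0.08, the microtubule-depolymerising kinesin KIF2C at -0.65 ± 0.07 and TOP2A, which untangles sister DNAs, at -0.63 ± 0.08 in the authors' deposited table. HMMR and TPX2, which promote microtubule assembly, stood at -0.55 ± 0.07 and -0.36 ± 0.08, and ASPM, a spindle pole protein, at -0.30 ± 0.08 in the authors' deposited table. The chromosome-bound kinesin KIF4A stood at -0.34 ± 0.08 in the authors' deposited table and is uncertain because of its near-identical copy KIF4B, at -0.40 (0.00101).

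All 5 genes of the central spindle and cytokinesis fell. KIF20A and KIF23, kinesins of the central spindle, stood at -0.42 ± 0.08 and -0.46 ± 0.07 in the authors' deposited table. PRC1, which bundles its microtubules, stood at -0.31 ± 0.08 and ECT2, the exchange factor that activates RhoA for the contractile ring, at -0.27 ± 0.09 (false discovery rate 0.00631) in the authors' deposited table, the smallest change among the genes called lower. ANLN, a scaffold of the ring, went from 412 to 233 CPM, at -0.82 ± 0.08 in the authors' deposited table (1.98e-21). ANLN lies on chromosome 7 (36389806 to 36453791, GRCh38), where 206 of the 225 other genes between the chromosome start and 50 Mb lay below 0, with a median of -0.91. The change of ANLN and the shift of that segment cannot be told apart. For the other 37 genes, the median change of measured neighbours within 5 Mb ran from -0.16 to 0.25, with a median of -0.00 over genes.

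The 2 transcription factors differed from each other. MYBL2, the activator that joins MuvB in S phase, went from 98.3 to 74.5 CPM, at -0.40 ± 0.08 in the authors' deposited table (1.57e-05). FOXM1, which follows it in G2, did not pass, at -0.08 ± 0.10 in the authors' deposited table (false discovery rate 0.558, 95% interval -0.28 to 0.12). The proliferation marker MKI67 also did not pass, at 0.03 ± 0.14 in the authors' deposited table (0.899). Set by promoter letters, 20 of the 22 genes with a CHR element fell and 1 rose, with a median of -0.52, and 8 of the 9 without it fell, with a median of -0.50. Of the 7 genes with no promoter in the table, 6 fell, with a median of -0.40.

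In cells given back wild-type AGO2, 17 of the 38 mitotic genes stood higher than in the knockout. Because AGO2_KO is the control here and the test group above, the comparisons share its 3 libraries and are set side by side only. In the authors' deposited table of FH-AGO2_WT against AGO2_KO, 17 of the 38 genes were called higher and 0 lower, against 4.21% higher and 5.85% lower over all genes and 5.47% higher among genes at least as strongly expressed. The median was 0.22, against 0.01 over all genes, 37 of the 38 lay above 0, and none of the 17 reached 1.5-fold. The summed fitted level rose from 6530 to 7491 CPM. Adjusted by the Bonferroni method in place of the false discovery rate, 1 of the 17, MYBL2, was called, against 241 of all genes.

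MYBL2 had the largest value, going from 74.5 CPM in AGO2_KO to 108 CPM in FH-AGO2_WT, at 0.54 ± 0.09 in the authors' deposited table (8.03e-08). PLK1 followed, from 67.1 to 93.9 CPM, at 0.48 ± 0.13 in the authors' deposited table (0.00353). Both of these regulators thus stood above their parental levels of 98.3 and 80.4 CPM, though neither passed against parental, at 0.14 ± 0.09 and 0.22 ± 0.12 in the authors' deposited table. By role, 5 of the 9 entry genes rose (PLK1, CCNA2, AURKA, NEK2 and CCNB1), with CCNA2 at 0.31 ± 0.08 and AURKA at 0.27 ± 0.07 in the authors' deposited table. MAD2L1 at 0.29 ± 0.08 and BUB1B at 0.21 ± 0.07 rose among the 5 checkpoint genes, and UBE2C at 0.35 ± 0.08 among the 3 of the anaphase-promoting complex, in the authors' deposited table. Of the 5 kinetochore genes only NDC80 passed, from 53.7 to 66.9 CPM, at 0.32 ± 0.08 in the authors' deposited table. BIRC5 at 0.25 ± 0.08 was the passenger gene that rose, and KIF2C, HMMR, KIF4A and TOP2A, between 0.22 and 0.24 in the authors' deposited table, were the 4 of 7 spindle genes. The cytokinesis genes KIF20A at 0.32 ± 0.08 and PRC1 at 0.30 ± 0.08 rose in the authors' deposited table.

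The genes that did not pass included some with narrow intervals near 0. ECT2 stood at 0.02 (95% interval -0.16 to 0.19) and BUB3 at 0.07 (-0.10 to 0.24) in the authors' deposited table of FH-AGO2_WT against AGO2_KO. CDC25B went the other way from the rest, from 110 to 92.5 CPM, at -0.25 ± 0.09 in the authors' deposited table, and just missed the threshold (false discovery rate 0.055). With fold changes centred on the median of all genes CDC25B was called lower (0.0474), and BUB1B and KIF4A were no longer called. CDKN1A was lower in FH-AGO2_WT than in AGO2_KO, at -0.47 ± 0.11 in the authors' deposited table (0.0006).

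In cells given the 5xA protein, few of these genes passed against the knockout, at a share near that of all genes. In the authors' deposited table of FH-AGO2_5xA against AGO2_KO, 3 of the 38 genes were called higher and 0 lower. Over all genes 5.04% were higher and 6.24% lower, and 3.79% were higher among genes at least as strongly expressed. The 3 called genes were MYBL2 at 0.41 ± 0.09 (8.75e-05), UBE2C at 0.29 ± 0.08 (0.00486) and MAD2L1 at 0.23 ± 0.08 (0.0483) in the authors' deposited table. MAD2L1 lost its call when fold changes were centred on the median of all genes (0.0573). The median over the 38 was 0.05, against 0.01 over all genes, with 27 above 0, and the summed fitted level was 6683 CPM. Many genes had values close to 0 in the authors' deposited table: TPX2 stood at 0.00 (95% interval -0.16 to 0.17), BUB1 at -0.00 (-0.14 to 0.14) and CENPE at 0.00 (-0.18 to 0.18). CDKN1A was lower here too, at -0.42 ± 0.11 in the authors' deposited table (0.00192). Against parental CDKN1A was still higher, at 1.57 ± 0.11 in FH-AGO2_WT and 1.61 ± 0.11 in FH-AGO2_5xA in the authors' deposited table.

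Against parental cells, both reconstituted lines had lower levels of most of these genes. In the authors' deposited table of FH-AGO2_WT against parental, 24 of the 38 were lower and 1, CDC25B, was higher, against 16.1% lower and 18.3% higher over all genes, with a median of -0.30 over the 38. In that of FH-AGO2_5xA against parental, 34 were lower and CDC25B was higher, against 20.9% and 22.9% over all genes, with a median of -0.40. These comparisons share the parental libraries with each other and with that of AGO2_KO. PRC1 in FH-AGO2_WT lay near its parental level, at 342 against 346 CPM, or -0.02 in the authors' deposited table (95% interval -0.16 to 0.13). AURKA at -0.08 (-0.21 to 0.05) and KIF20A at -0.11 (-0.27 to 0.06) did not pass there either in the authors' deposited table. MYBL2 was the gene of the 38 nearest to its parental level in FH-AGO2_5xA, at 0.01 in the authors' deposited table (95% interval -0.16 to 0.17). At the other end, ANLN reached -1.03 ± 0.08 and NDC80 -0.91 ± 0.08 in FH-AGO2_5xA against parental in the authors' deposited table.

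**Figure D3:**
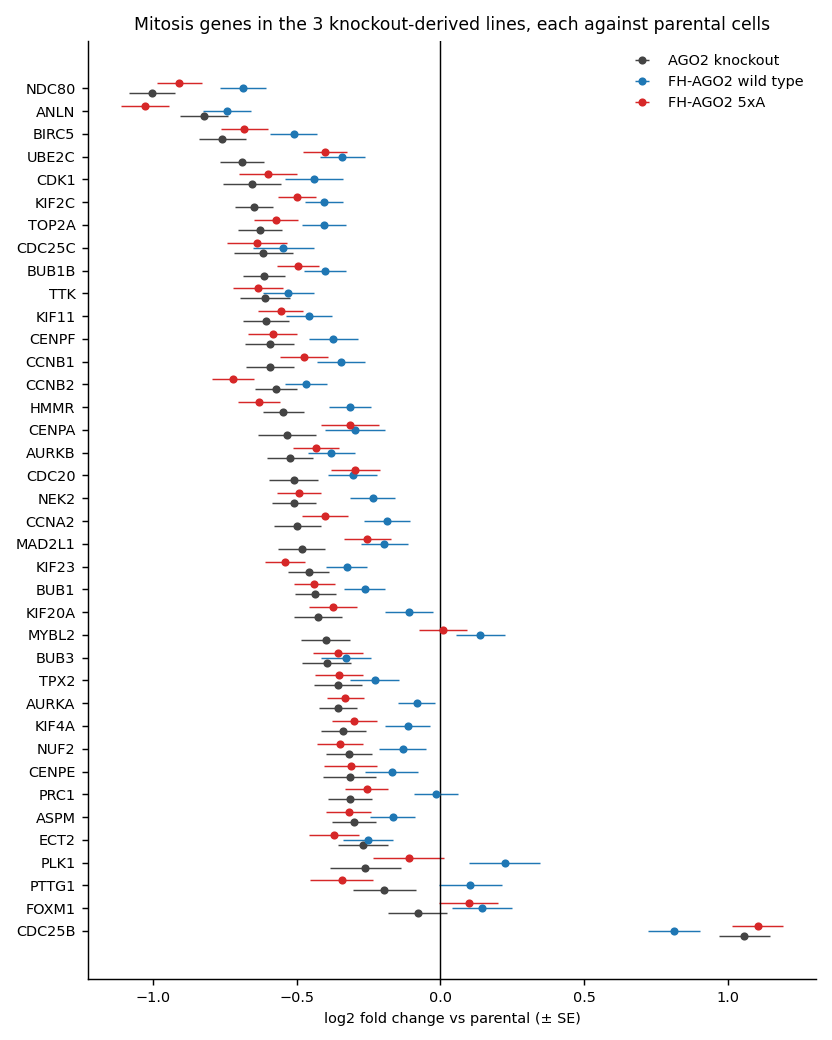
Log2 fold change against parental (x axis, points with SE) of the 38 genes in AGO2_KO (black), FH-AGO2_WT (blue) and FH-AGO2_5xA (red), ordered by the knockout value; the 3 comparisons share the parental libraries. Most blue points lie to the right of the black and red ones, as PRC1 shows at -0.02 for wild type and -0.26 for 5xA, while MYBL2 is near 0 in both reconstituted lines and CDC25B lies right of 0 in all 3.

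The comparison the series was made for is that of the mutant with the wild-type protein. No deposited table makes it, so the difference was derived from the tables: FH-AGO2_5xA against AGO2_KO minus FH-AGO2_WT against AGO2_KO, with a variance solved from all 5 tables and a chi-square test with 1 degree of freedom, adjusted by the Benjamini-Hochberg method over 15072 genes. Of the 38 genes, 8 were lower in FH-AGO2_5xA than in FH-AGO2_WT and 1, CDC25B, was higher, against 2.13% lower and 1.98% higher over all genes and 3.04% lower among genes at least as strongly expressed. The median difference was -0.16, against 0.01 over all genes, and 36 of the 38 lay below 0. These calls depend on how the variance is obtained: with the squared SEs of the tables against AGO2_KO, or of those against parental, simply summed, 0 of the 38 were called, and 13 and 17 genes of all. Such sums count the variance of the shared control, which cancels in the difference, and so are an upper bound. The AGO2 mRNA itself differed between the 2 lines by -0.02 ± 0.07.

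Securin (PTTG1) had the largest derived difference, at -0.45 ± 0.11 (adjusted p = 0.00669), with fitted levels of 156 CPM in FH-AGO2_WT and 114 CPM in FH-AGO2_5xA. In parental and AGO2_KO it stood at 145 and 126 CPM, so the mutant line was the lowest of the 4 and the wild-type line the highest. The neighbours in that order did not differ past the threshold: FH-AGO2_5xA stood at -0.15 ± 0.11 against AGO2_KO and FH-AGO2_WT at 0.10 ± 0.11 against parental in the authors' deposited table. Its copies PTTG2 and PTTG3P differed by -0.03 and -0.10 and were not called. HMMR followed at -0.32 ± 0.07 (adjusted p = 0.00292), with 186 CPM in FH-AGO2_WT and 149 CPM in FH-AGO2_5xA. In FH-AGO2_5xA HMMR stood below its level in AGO2_KO as well, 149 against 158 CPM, but that difference did not pass, at -0.08 ± 0.07 in the authors' deposited table.

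The other lower genes came from mitotic entry and from cytokinesis. NEK2 differed by -0.26 ± 0.08 (adjusted p = 0.0374), CCNB2 by -0.25 ± 0.08 (0.028) and AURKA by -0.25 ± 0.07 (0.0126). Of the cytokinesis genes, ANLN differed by -0.28 ± 0.08 (0.0277), KIF20A by -0.26 ± 0.08 (0.0456) and PRC1 by -0.24 ± 0.08 (0.0417). For ANLN the left part of chromosome 7 had a median derived difference of -0.00, and the 32 measured genes within 5 Mb of ANLN a median of -0.09. CDC25B again ran opposite to the rest, at 0.29 ± 0.09 (0.0349), with 92.5 CPM in FH-AGO2_WT and 113 CPM in FH-AGO2_5xA.

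In the spindle checkpoint, the kinetochore and the passenger complex 0 of 5, 0 of 5 and 0 of 2 genes passed, and neither transcription factor did; with 2.13% of all genes called lower, such counts are no contrast with the other roles, which was not tested. NDC80 at -0.22 ± 0.08 (adjusted p = 0.0909) and NUF2 at -0.22 ± 0.08 (0.101) missed the threshold with the same size and error. PLK1 at -0.33 ± 0.13 (0.0975) and KIF23 at -0.21 ± 0.07 (0.0554) missed it too, though KIF23 passed (0.043) with fold changes centred on the median of all genes. For CDC20 the derived difference was 0.01 (95% interval -0.16 to 0.18), for BUB3 -0.03 (-0.20 to 0.14) and for CENPA -0.02 (-0.23 to 0.19), and the lower bounds of all 3 lie above -0.24, the smallest fall called among the 38.

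**Figure D4:**
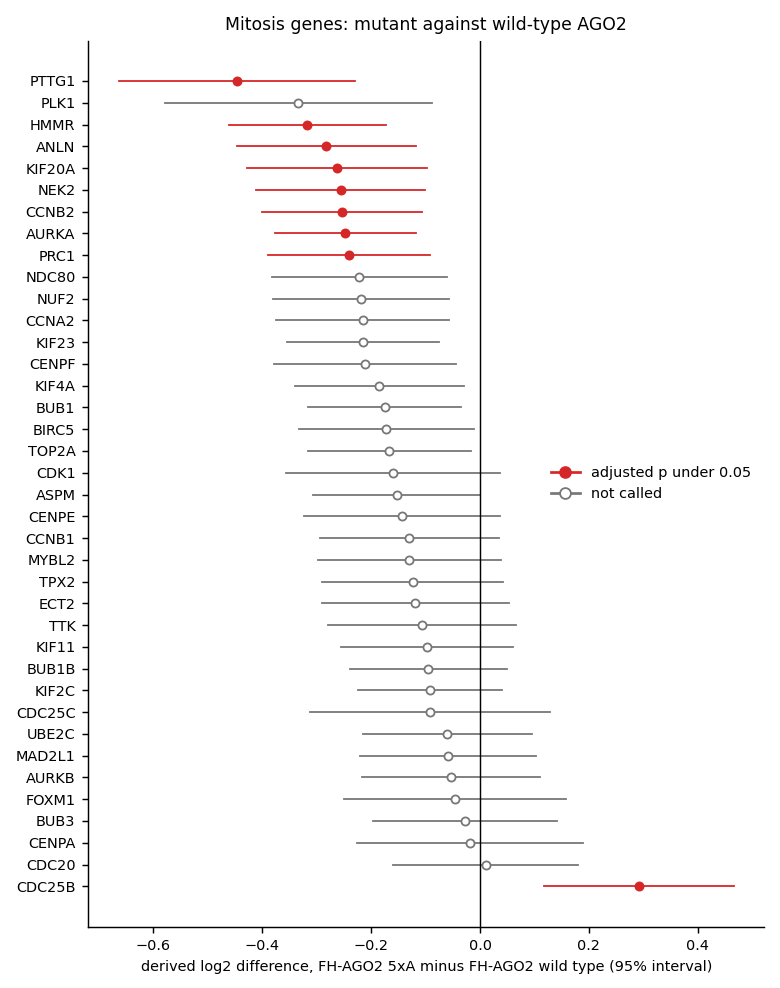
Derived log2 difference of FH-AGO2_5xA minus FH-AGO2_WT (x axis, points with 95% intervals) for the 38 genes, ordered by value; red filled points passed an adjusted p of 0.05. PTTG1 lies lowest at -0.45, CDC25B highest at 0.29, and 36 of the 38 points lie left of 0.

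The other genes of mitosis were read from 7 further lists with 145 measured genes, in which 99 fell and 5 rose in the authors' deposited table of AGO2_KO against parental, where 21.2% of all genes were lower and 23.2% higher. Kinetochore and centromere-loading genes outside the 38 fell in 30 of 35 cases, and none rose. Among them CENPU and CENPH, of the inner kinetochore, stood at -0.96 ± 0.08 and -0.96 ± 0.11, the checkpoint recruiter ZWINT at -0.65 ± 0.07 and HJURP, the chaperone that loads CENPA, at -0.60 ± 0.08 in the authors' deposited table. Of the condensin, cohesin and separase genes 13 of 19 fell, with the cohesin protector CDCA5 at -0.70 ± 0.08, the condensin subunits NCAPH and NCAPG at -0.67 ± 0.07 and -0.51 ± 0.08 and separase (ESPL1) at -0.44 ± 0.09 in the authors' deposited table; the cohesin loader NIPBL rose, at 0.37 ± 0.10. Other kinesins and spindle factors fell in 15 of 19 cases, led by KIF15 at -0.76 ± 0.08, with NUSAP1 at -0.53 ± 0.08, RACGAP1 at -0.47 ± 0.08 and DLGAP5 at -0.45 ± 0.07 in the authors' deposited table. Other regulators and markers of G2 and mitosis fell in 24 of 27 cases, among them LMNB1 at -0.66 ± 0.08, PSRC1 at -0.70 ± 0.08 and the checkpoint kinase CHEK1 at -0.48 ± 0.07 in the authors' deposited table. MAD1L1, the partner of MAD2L1 at unattached kinetochores, stood at -1.44 ± 0.17 in the authors' deposited table; it lies in the shifted part of chromosome 7.

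Of the 17 anaphase-promoting complex genes 5 fell, a share near the 21.2% of all genes. They include the inhibitor FBXO5 at -0.49 ± 0.07 and the subunits ANAPC16 at -0.34 ± 0.08, ANAPC15 at -0.35 ± 0.11 and ANAPC11 at -0.55 ± 0.20 in the authors' deposited table. Centriole and centrosome genes fell in 7 of 11 cases, all by less than 0.40, with the duplication kinase PLK4 at -0.36 ± 0.06, NEDD1 at -0.38 ± 0.09, SASS6 at -0.31 ± 0.08 and CENPJ at -0.31 ± 0.08 in the authors' deposited table. The list of DREAM, MuvB and NF-Y subunits with the genes upstream of them had 5 of 17 lower and 4 higher, close to the shares of 21.2% and 23.2% over all genes. Its members CDKN1A at 2.04 ± 0.11 and RB1, the retinoblastoma protein, at 0.44 ± 0.08 rose, and the NF-Y subunit NFYB at -0.45 ± 0.08 and RBL1, which encodes the pocket protein p107, at -0.32 ± 0.07 fell in the authors' deposited table.

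In FH-AGO2_WT against AGO2_KO, 33 of the 145 rose and 1 fell in the authors' deposited table, against 4.21% higher and 5.85% lower over all genes, 12 of them among the 35 kinetochore genes, with HJURP and CENPH both at 0.44. In FH-AGO2_5xA against AGO2_KO 11 rose and 5 fell in the authors' deposited table, near the 5.04% higher and 6.24% lower over all genes. In the derived difference of the reconstituted lines 12 of the 145 were lower in FH-AGO2_5xA and 0 higher, against 2.13% lower and 1.98% higher over all genes. With either sum of squared SEs, 0 of these 145 were called. RBL1 had the smallest adjusted p of these, at -0.34 ± 0.08 (0.00226), followed by NUSAP1 at -0.36 ± 0.08 (0.00422) and NCAPG at -0.31 ± 0.08 (0.00754). With CDKN1A the derived difference was 0.04 ± 0.11 (0.869).

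**Figure D5:**
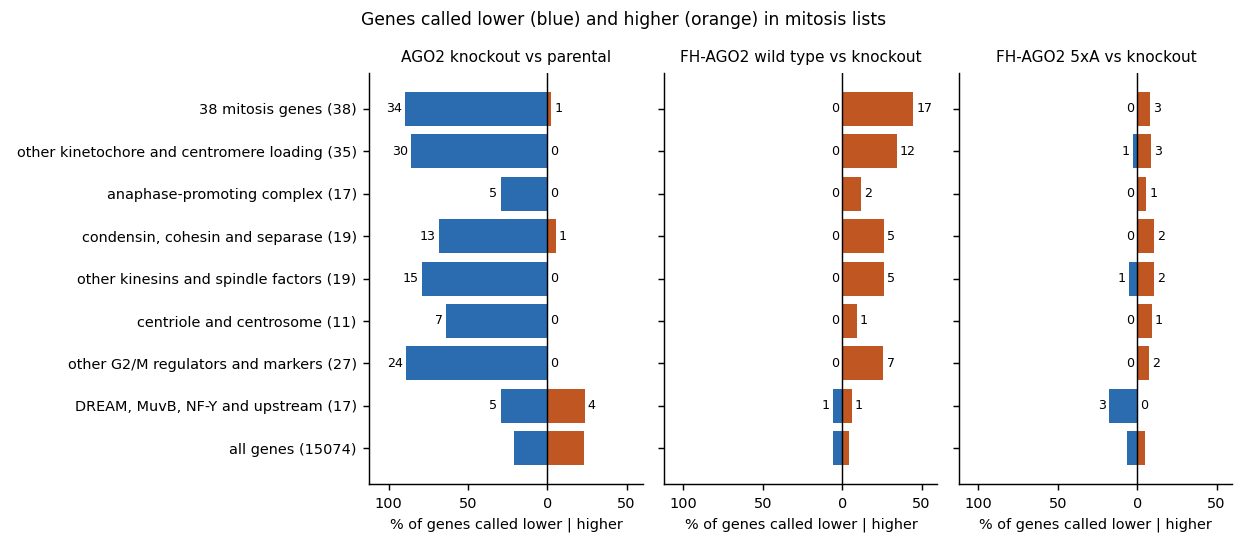
Percent of genes called lower (blue, left) and higher (orange, right) at a false discovery rate under 0.05 in 3 of the deposited comparisons, for the 38 genes, 7 further lists (number measured in brackets) and all genes; numbers beside the bars are gene counts. The 3 comparisons share the AGO2_KO libraries and are set side by side only. In the top rows, 34 of 38 and 30 of 35 were lower in AGO2_KO against parental (21.2% of all genes). Higher were 17 and 12 in FH-AGO2_WT against AGO2_KO (4.21% of all genes), and 3 and 3 in FH-AGO2_5xA against AGO2_KO (5.04%).

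Several of these genes share transcribed sequence with others. Exons of 13 of the 38 overlap a gene on the opposite strand, 8 of them with a partner in the tables, and 3 (BUB1B, CENPA and PRC1) overlap a gene on their own strand. Whether strand was used in counting was not given in these sources. In AGO2_KO against parental, the measured opposite-strand partner of CCNA2, EXOSC9, stood at -0.36 and that of ANLN, KIAA0895, at -0.54 in the authors' deposited table, both called lower. That of KIF23, AC027237.3, stood at -0.92 in the authors' deposited table and was also called lower. For CDC25C it was FAM53C at 0.22, called higher, and for KIF20A it was BRD8 at -0.19 and CDC23 at -0.02, neither called, in the authors' deposited table. For FOXM1 it was ITFG2 at -0.08, for KIF4A PDZD11 at -0.03 and for NUF2 RGS5, with entries at 0.23 and -0.08, none called. SLC35F6, which overlaps CENPA on its own strand, stood at -0.01 and was not called.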

How the data were processed

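Whole-transcriptome RNA-seq of 4 HCT116 groups with 3 libraries each (12 in all) was read from 5 tables of comparisons over 15074 genes. The submitters' processing notes name the build hg38/GRCh38 and the tools edgeR 3.8.6, featureCounts 1.4.6, TopHat2 2.0.12 and Cufflinks 2.2.1. Nothing is said there of annotation, low-count filter, normalization factors or strand: these were not given in the sources used here. Per the file headers, the authors' deposited tables hold a log2 fold change, a mean log2 CPM, a likelihood ratio score, and a p-value with its false discovery rate. The deposited p-value equalled the chi-square tail (1 degree of freedom) of the score within 7.36e-15, and fold changes closed across tables within 4.62e-14.

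Values per library were not analysed here, so the deposited edgeR tests stood in for tests on counts, depth is unknown, and no library was left out in turn. The SE of a fold change was its absolute log2 value over the square root of the score. For FH-AGO2_5xA against FH-AGO2_WT the variances of the 4 groups were solved from the 5 squared SEs by least squares; 2 genes were undefined. As a check, the variance for FH-AGO2_WT against AGO2_KO was also obtained without its own SE. The squared SEs of FH-AGO2_WT against parental and FH-AGO2_5xA against AGO2_KO were added, and that of FH-AGO2_5xA against parental was subtracted. With the deposited fold change this gave 1511 calls against 1516 deposited, 1507 of them shared, and all 17 of the mitosis genes. The fold change itself was not predicted, and the check bears on the variances only.

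The threshold for a call was a false discovery rate of 0.05. All 38 genes are named, with up to 4 genes of each of 7 further lists (147 genes, 145 measured; KIFC1 and SKA1 were not in the tables) with the smallest p in AGO2_KO against parental, and AGO2, CDKN1A and MKI67; 1 further gene of that rule is not reported here. Other genes named as copies, overlapping partners, or as the one of a list that rose (NIPBL), were chosen after their values were seen. The members and lists were chosen with earlier results of these data known. Symbols were found for 14974 identifiers, and 15029 were in GENCODE 29. Alternatives were other thresholds, Bonferroni adjustment, a minimum mean log2 CPM of 1, centring, leaving out chromosome 7, a 1.5-fold minimum, and summed variances. Python 3.11.15, pandas 2.3.3, numpy 2.4.6, scipy 1.17.1 and matplotlib 3.10.9 were used. The intervals of promoter shares cover counting error only.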

Additional observations from a re-analysis of the deposited data

Results flagged for a closer look

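For 9 of the 38 genes the effect of reconstitution differed between the mutant and the wild-type protein by a test of the difference itself. Of these, 8 were lower and 1 higher in FH-AGO2_5xA, against 2.13% lower and 1.98% higher over all genes. With either sum of squared SEs, or with Bonferroni adjustment, 0 of the 38 were called. The derived log2 difference of FH-AGO2_5xA minus FH-AGO2_WT was -0.45 for PTTG1, -0.32 for HMMR and -0.28 for ANLN. It was -0.26 for KIF20A and for NEK2, -0.25 for CCNB2 and for AURKA, and -0.24 for PRC1. For CDC25B it was 0.29, in the opposite direction. The mitochondrial share of the fitted CPM also differed between these lines, at 3.91% in FH-AGO2_WT and 1.99% in FH-AGO2_5xA, and its part in these differences was not tested. CDKN1A, at 0.04 ± 0.11, did not pass in the same difference.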

How the results depend on the processing

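Under the alternatives that could be run, 1449 of 1666 gene values stayed on their side of the threshold. A further 201 were no longer past it and 16 newly passed. Only centring shifts the fold changes themselves, so the other alternatives could not reverse a sign. The counts of called genes changed most with the size of change asked for. At a minimum of 1.5-fold, against parental, 14 of the 38 were called in AGO2_KO, 3 in FH-AGO2_WT and 9 in FH-AGO2_5xA. Over all 15074 genes these counts were 2357, 1895 and 2492, so the 3 are a smaller share than that of all genes. In FH-AGO2_WT against AGO2_KO, FH-AGO2_5xA against AGO2_KO and FH-AGO2_5xA against FH-AGO2_WT, 0 of the 38 were called. Over all genes these counts were 329, 456 and 163. With Bonferroni adjustment the counts against parental were 11 in FH-AGO2_WT, 22 in FH-AGO2_5xA and 27 in AGO2_KO. Over all genes these were 1617, 2358 and 2435. Against AGO2_KO, 1 (MYBL2) was called in FH-AGO2_WT and in FH-AGO2_5xA, beside 241 and 302 of all genes. In FH-AGO2_5xA against FH-AGO2_WT the count was 0, beside 44 of all genes. At a false discovery rate under 0.01, 9 were called in FH-AGO2_WT against AGO2_KO and 2 (HMMR and PTTG1) in FH-AGO2_5xA against FH-AGO2_WT. Over all genes these counts were 688 and 182. At 0.1, 5 were called in FH-AGO2_5xA against AGO2_KO, with CDC20 and ANLN added, ANLN as lower, against 2467 of all genes. Summed variances, against AGO2_KO or against parental, left 0 of the 38 in FH-AGO2_5xA against FH-AGO2_WT, and 13 and 17 of all genes. These variances are larger by construction. Leaving out chromosome 7 removed ANLN and changed no other call of the 38. The medians moved by at most the shift of all genes when centred, and the share of CHR elements went from 71% to 64.5% in the narrower window.

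No paired analysis was possible because the deposited tables hold no values per library, so neither a replicate block nor a fit without single libraries was run. Depth limits could not be given. Small differences have SEs near 0.08 on the log2 scale in these genes, so values of about that size were not detectable.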
